A study of Mus musculus with 10 samples.

Results

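The 9 genes described here encode surface proteins used to recognise type 2 conventional dendritic cells (cDC2): Sirpa, Clec12a, Clec4a2, Clec4a4, Cd209a, Clec10a, Mgl2, Cd4 and Cd7. They were taken by gene name from the 52550 genes of one table of log2 RPKM values (read counts divided by gene length and library size, on a log2 scale). Testing was limited to the 14787 genes that exceeded 0 log2 RPKM in 2 or more libraries, 8 members among them. Mgl2 exceeded that level in 1 library and is given by its reads.

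The series holds 10 RNA sequencing libraries from spleen dendritic cell precursors of C57BL/6 mice, in 4 groups. CD11c-cre Adam10fl/fl mice (KO) gave 3 libraries of pre-cDC1 and 2 of pre-cDC2, numbered 1 and 2, and wild-type (WT) mice gave 3 of pre-cDC1 and 2 of pre-cDC2, numbered 2 and 3. In KO mice, Cre made under the CD11c promoter acts on loxP-flanked Adam10, which encodes a membrane protease that cleaves Notch receptors among other surface proteins, so any cell with an active CD11c promoter can carry the deletion. Sample titles name pre-cDC1 "DN" and pre-cDC2 "Ly6C". The labels do not say that replicates came from separate animals, so the p-values measure the spread between these libraries, which may be technical.

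Pre-cDC1 and pre-cDC2 are the committed precursors of cDC1, which specialise in cross-presentation to CD8+ T cells, and of cDC2, which mainly present antigen on MHC class II to CD4+ T cells. In mouse spleen, SIRPα separates cDC2 from cDC1 on the cell surface, and Notch2-dependent cDC2 carry CD4 and DCIR2. SIRPα, CLEC12A, DCIR1 (from Clec4a2) and DCIR2 (from Clec4a4) are inhibitory receptors whose cytoplasmic motifs recruit the phosphatases SHP-1 and SHP-2. CD209a, MGL1 (from Clec10a) and MGL2 (from Mgl2) are C-type lectins that bind glycans and take up antigen, while CD4 and CD7 are immunoglobulin-superfamily proteins best known from T cells.

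All members are protein-coding genes, placed here by the GENCODE M21 annotation of GRCm38. Sirpa (ENSMUSG00000037902.18) lies at chr2:129592835-129632228 on the + strand, and Cd209a (ENSMUSG00000031494.7) at chr8:3743397-3748984 on the - strand. A cluster on chromosome 6 holds Clec4a4 (ENSMUSG00000059639.2, chr6:122990367-123024105, +) and Clec4a2 (ENSMUSG00000030148.15, chr6:123106428-123143999, +). Cd4 (ENSMUSG00000023274.14, chr6:124864692-124888221, -) and Clec12a (ENSMUSG00000053063.11, chr6:129342691-129365303, +) are farther along the same chromosome. Chromosome 11 carries Mgl2 (ENSMUSG00000040950.13, chr11:70130329-70137550, +) beside Clec10a (ENSMUSG00000000318.16, chr11:70156197-70170834, +), and Cd7 (ENSMUSG00000025163.6, chr11:121036747-121039418, -).

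Each of 2 neighbouring pairs is close in sequence, so reads can fit both genes of a pair, and how such reads were counted is not given in the sources used here. Over aligned coding bases, Clec10a and Mgl2 were 87.4% identical with a longest identical run of 183 bases, and Clec4a2 and Clec4a4 were 85.7% identical with a run of 163 bases. Of all 50-base words in the transcripts, 13.1% of those of Mgl2 and 9.02% of those of Clec10a also occurred in another gene. For Clec4a4 the share was 15.7%, for Clec4a2 6.69% and for Clec12a 0.402%. Sirpa, Cd209a, Cd7 and Cd4 shared none. The values of both pairs are therefore uncertain at low read counts. The 60-base coding windows in which each pair differs most are given here, read from GENCODE M21 transcripts 5′ to 3′, with capitals at the bases that differ (17 in the first pair and 22 in the second).
Clec10a, exons 8 and 9: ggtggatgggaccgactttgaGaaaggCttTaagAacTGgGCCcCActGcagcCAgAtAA
Mgl2, exon 9: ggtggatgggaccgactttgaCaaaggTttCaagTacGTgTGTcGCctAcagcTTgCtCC
Clec4a2, exons 6 and 7: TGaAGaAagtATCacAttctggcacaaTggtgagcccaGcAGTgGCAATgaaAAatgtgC
Clec4a4, exons 5 and 6: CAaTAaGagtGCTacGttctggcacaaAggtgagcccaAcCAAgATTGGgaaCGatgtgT

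On the opposite strand, the predicted gene Gm11775 shares 122 of the 1133 exon bases of Cd7. Without the strand setting, which is not given in the sources used here, reads over those bases cannot be assigned to one of them. Gm11775 was listed at 0 reads in all 10 libraries.

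Recovered totals per library ranged between 7862449 and 13177686 reads for pre-cDC2, and between 7922955 and 11357800 for pre-cDC1. Adam10 had 3 to 13 reads in KO and 10 to 48 in WT pre-cDC1. In pre-cDC2 its reads numbered 742 to 909 in KO and 228 to 1261 in WT. Neither genotype difference passed the test (limma, Benjamini-Hochberg adjusted p = 0.644 and 0.884), and reads from exons outside the floxed segment also count, so these values do not check the deletion. Defining cDC1 markers fitted the label of pre-cDC1: Xcr1 was -0.46 to 0.64 log2 RPKM in pre-cDC2, against 8.25 to 8.30 in KO and 7.58 to 7.89 in WT pre-cDC1. Clec9a was 4.57 to 6.13 in pre-cDC2 and 7.29 to 7.73 in pre-cDC1. Irf8 was 6.89 to 8.18 in pre-cDC2 and 9.27 to 9.56 in pre-cDC1, so both were lower but well detected in pre-cDC2. Ly6c2, which encodes Ly6C, was 9.22 to 9.62 in pre-cDC2 and 2.70 to 3.80 in pre-cDC1. Pre-cDC2 libraries also held T and NK cell transcripts: Cd3e, a chain of the T cell receptor complex, was at 5.18 and 5.51 log2 RPKM in KO pre-cDC2, and at 1.32 and 6.18 in WT replicates 2 and 3.

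WT pre-cDC2 replicate 2 stood apart, and the members moved with it. It correlated with WT replicate 3 across genes at r = 0.774, against 0.867 to 0.886 in the other pairs of replicates (genes are not independent replicates). All 9 members were higher in replicate 2 than in replicate 3, by 0.98 (Cd7) to 4.78 log2 (Clec4a4), whereas the median over tested genes was 0.0 and 47.9% of them were higher. The Clec4a4 gap was 9 reads against 0, so its size was set by the prior count. The next largest was 1.84 for Clec4a2, from 76 and 17 reads. A gap of at least that of Cd7 occurred in 17.5% of tested genes. The T cell list of 18 genes averaged 2.21 log2 RPKM in replicate 2 and 6.52 in replicate 3, whereas KO pre-cDC2 replicates gave 6.04 and 6.00. The NK cell list of 17 genes averaged 1.31 and 5.95 in these WT libraries, and 5.80 and 5.81 in KO. Other lists ran the other way in WT: the plasmacytoid DC list of 17 genes averaged 4.91 and 3.45, and the monocyte list 4.85 and 3.59. The pre-cDC list, at 7.9 and 6.51, and the other cDC2 programme genes, at 4.38 and 3.59, did so too. So did the cDC1 (1.99 and 1.37), B cell (2.98 and 2.31), neutrophil (3.51 and 2.56) and red pulp macrophage lists (1.79 and 1.34). In KO pre-cDC2 the plasmacytoid DC list averaged 3.85 and 4.20, and in pre-cDC1 libraries 1.10 to 1.84. Of its genes, 12 passed the limma test as higher in pre-cDC2 than pre-cDC1 in KO (10.7% of all genes did), and 11 in WT (4.88%). The part of these cell types in the members' values was not tested. Differences that rest on the WT pre-cDC2 libraries are therefore given below also with 1 of them left out, for members and named genes of the lists. A fit with 1 pre-cDC2 library left out leaves 1 in that group, so its SE and p hold no spread within that group.

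**Figure D1:**
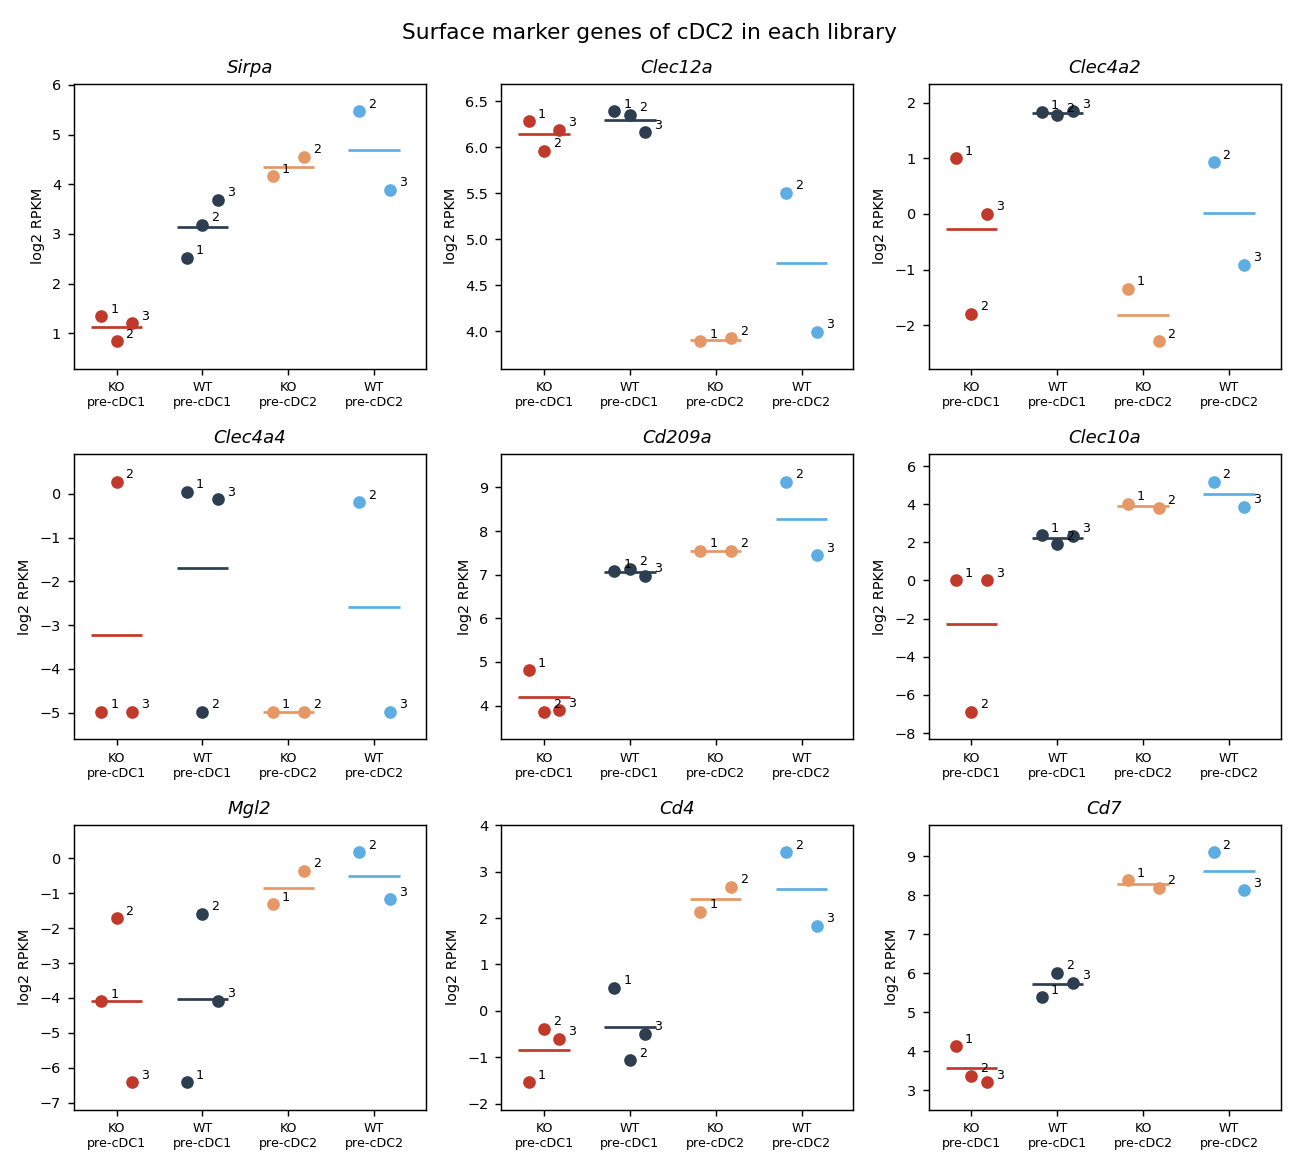
Level of each of the 9 genes in log2 RPKM (vertical axis, its own scale per panel) in KO and WT pre-cDC1 and KO and WT pre-cDC2. Points are libraries with their replicate numbers and bars are group means. In Sirpa, Cd209a, Cd7, Clec10a and Clec4a2 every KO pre-cDC1 point lies below every WT one, and WT pre-cDC2 replicate 2 lies above replicate 3 in all panels.

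Setting KO beside WT pre-cDC1 asks whether cells bound for cDC1 carry these transcripts differently when Adam10 is deleted under CD11c-cre. Sirpa, Cd209a, Cd7, Clec10a and Clec4a2 were lower in each KO library than in each WT library, with fitted differences between -4.48 and -2.0 log2. No member passed the limma test over all genes (0 of 8), and 4 of 14787 genes did (0.0271%). At an unadjusted p under 0.05 the same 5 members passed, against 9.03% of all genes, and voom on recovered reads also called 0 members. Clec12a and Cd4 overlapped between genotypes. In bulk libraries, fewer cells that carry a transcript and less of it per cell cannot be told apart.

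Among the inhibitory receptors, Sirpa, whose product binds CD47 on other cells, had 1.34, 0.84 and 1.20 log2 RPKM in KO pre-cDC1 (128, 86 and 85 reads), against 2.52, 3.18 and 3.69 in WT pre-cDC1. All KO libraries lay below the WT libraries, and the WT values spread over 1.17 log2. The difference was -2.0 ± 0.42 log2 (SE, n = 3 and 3), or 4.01-fold lower, with a limma adjusted p of 0.15 (Benjamini-Hochberg).

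Clec4a2 had 1.00, -1.80 and 0.00 log2 RPKM in KO pre-cDC1, from 60, 8 and 22 reads, against 1.83, 1.78 and 1.85 in WT pre-cDC1, from 90 to 107 reads. KO values were all lower but scattered over 2.80 log2, whereas WT values lay within 0.07 log2. The fitted difference was -2.09 ± 0.78 log2 (limma adjusted p = 0.453). Without KO replicate 2, the library with 8 reads, it was -1.32 ± 0.68, and with 1 RPKM added before the log2 it was -1.20 ± 0.35, neither past the threshold (adjusted p = 0.727 and 0.313).

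Clec12a showed no such gap: it had 6.28, 5.96 and 6.19 log2 RPKM in KO and 6.39, 6.35 and 6.16 in WT pre-cDC1. It was the highest member in KO pre-cDC1. The groups overlapped, the difference was -0.16 log2, and its 95% interval ran from -0.86 to 0.54. Clec4a4 was read 0, 9 and 0 times in KO and 7, 0 and 7 times in WT pre-cDC1, too few for a direction.

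Of the lectins, Cd209a, a mouse relative of human DC-SIGN, had 4.81, 3.86 and 3.89 log2 RPKM in KO pre-cDC1, against 7.08, 7.14 and 6.98 in WT pre-cDC1. It was the highest member in WT pre-cDC1, where its libraries lay within 0.16 log2, and every KO library was at least 2 log2 units below them. The difference was -2.88 ± 0.39 log2 (7.39-fold lower, limma adjusted p = 0.0526), and it ranked 9th of 14787 genes by p.

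Clec10a had 30, 0 and 22 reads in KO pre-cDC1, against 133, 98 and 148 in WT pre-cDC1. In log2 RPKM these were 0.02, -6.88 and 0.01 in KO, the second set by the prior count at 0 reads, against 2.36, 1.92 and 2.33 in WT. The fitted difference of -4.48 ± 1.55 log2 (limma adjusted p = 0.4) therefore depends on 1 library. Without KO replicate 2 it was -2.18 ± 0.38 (adjusted p = 0.172), and with 1 RPKM added before the log2 it was -1.81 ± 0.37 (adjusted p = 0.138). Mgl2 was read 1, 6 and 0 times in KO and 0, 6 and 1 times in WT pre-cDC1, so no difference was detectable at this depth.

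Cd7 had 4.13, 3.37 and 3.21 log2 RPKM in KO pre-cDC1, against 5.38, 6.01 and 5.75 in WT pre-cDC1. The groups were apart by more than the spread within either one. The difference was -2.15 ± 0.31 log2 (4.43-fold lower, limma adjusted p = 0.0526), 14th of all genes by p. Cd4 had -1.54, -0.39 and -0.60 log2 RPKM in KO and 0.50, -1.07 and -0.49 in WT pre-cDC1, overlapping values from 14 to 51 reads, with a difference of -0.49 ± 0.60.

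Together, 5 of the 8 tested members were lower in KO pre-cDC1 with no overlap, against 9.27% of all tested genes. The members' median difference was -2.04 log2, against a median of 0.0 over all genes. The adjusted p-values of the 3 with the smallest p turned on which libraries shared in the estimate of spread. With WT pre-cDC2 replicate 2 left out, the adjusted p was 0.0369 for Sirpa, 0.00338 for Cd209a and 0.0167 for Cd7. With replicate 3 left out instead it was 0.0355 for Sirpa, 0.00327 for Cd209a and 0.016 for Cd7. The differences themselves stayed as given, since these libraries are not in the contrast. With pre-cDC1 libraries alone, which leaves out both, the adjusted p was 0.123 for Sirpa, 0.0459 for Cd209a and 0.0852 for Cd7, and with voom it was 0.47, 0.136 and 0.25 for the same genes. Over all alternatives the adjusted p ranged from 0.0355 to 0.717 for Sirpa, from 0.00327 to 0.386 for Cd209a and from 0.016 to 0.413 for Cd7.

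**Figure D2:**
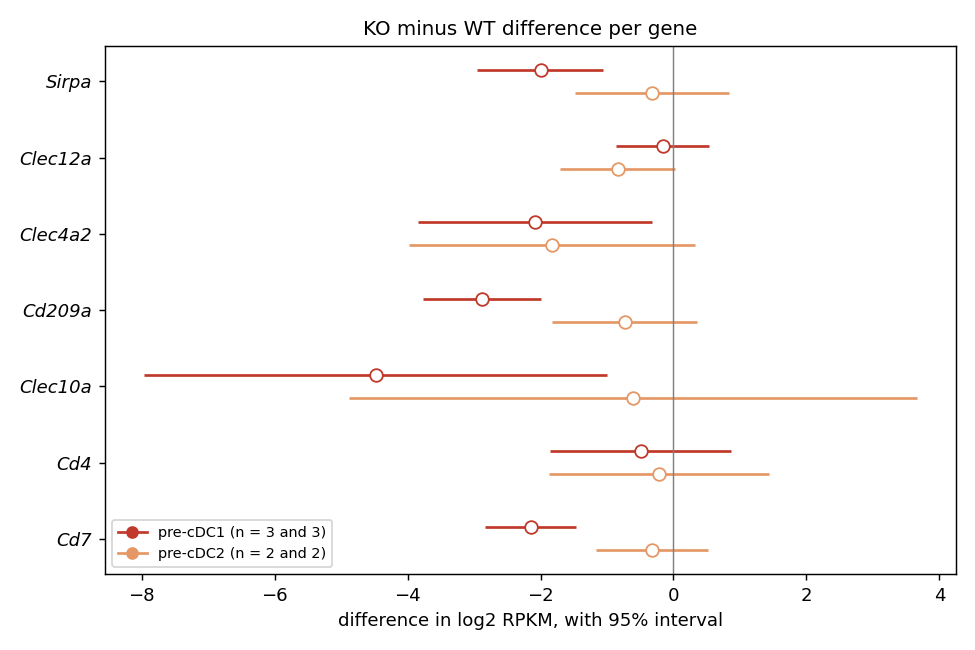
Fitted KO minus WT difference in log2 RPKM (horizontal axis) with its 95% interval for 7 genes, in pre-cDC1 above and in pre-cDC2 below within each row; open points did not pass the adjusted threshold of 0.05, and none passed. Clec4a4 and Mgl2 are left out for their low reads. The pre-cDC1 intervals of Sirpa, Clec4a2, Cd209a, Clec10a and Cd7 lie below 0, and all pre-cDC2 intervals include 0.

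Marker lists of other cells moved in the same direction in pre-cDC1, where 51.4% of all tested genes were lower in KO. In KO pre-cDC1 the T cell list averaged -3.67 to -2.70 log2 RPKM over libraries, against -1.40 to -0.43 in WT, and 17 of 18 genes were lower. The NK cell list averaged -2.95 to -1.68 in KO and -0.36 to 0.37 in WT, with 17 of 17 lower. The plasmacytoid DC list averaged 1.10 to 1.42 in KO and 1.68 to 1.84 in WT, with 12 of 17 lower, and the monocyte list averaged 1.49 to 2.76 in KO and 3.27 to 3.68 in WT, with 12 of 13 lower. B cell (5 of 6), neutrophil (7 of 7) and red pulp macrophage genes (9 of 9) were lower too. None of these genes passed the limma test in that comparison (0.0271% of all genes did). Defining T cell genes had few reads in pre-cDC1, with Cd3e at 0 to 8 reads in KO and 16 to 23 in WT. The cDC1 list ran the other way, with 14 of 15 genes higher in KO and a median of 0.33 log2. The part of other cells in the members' difference was not tested.

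**Figure D3:**
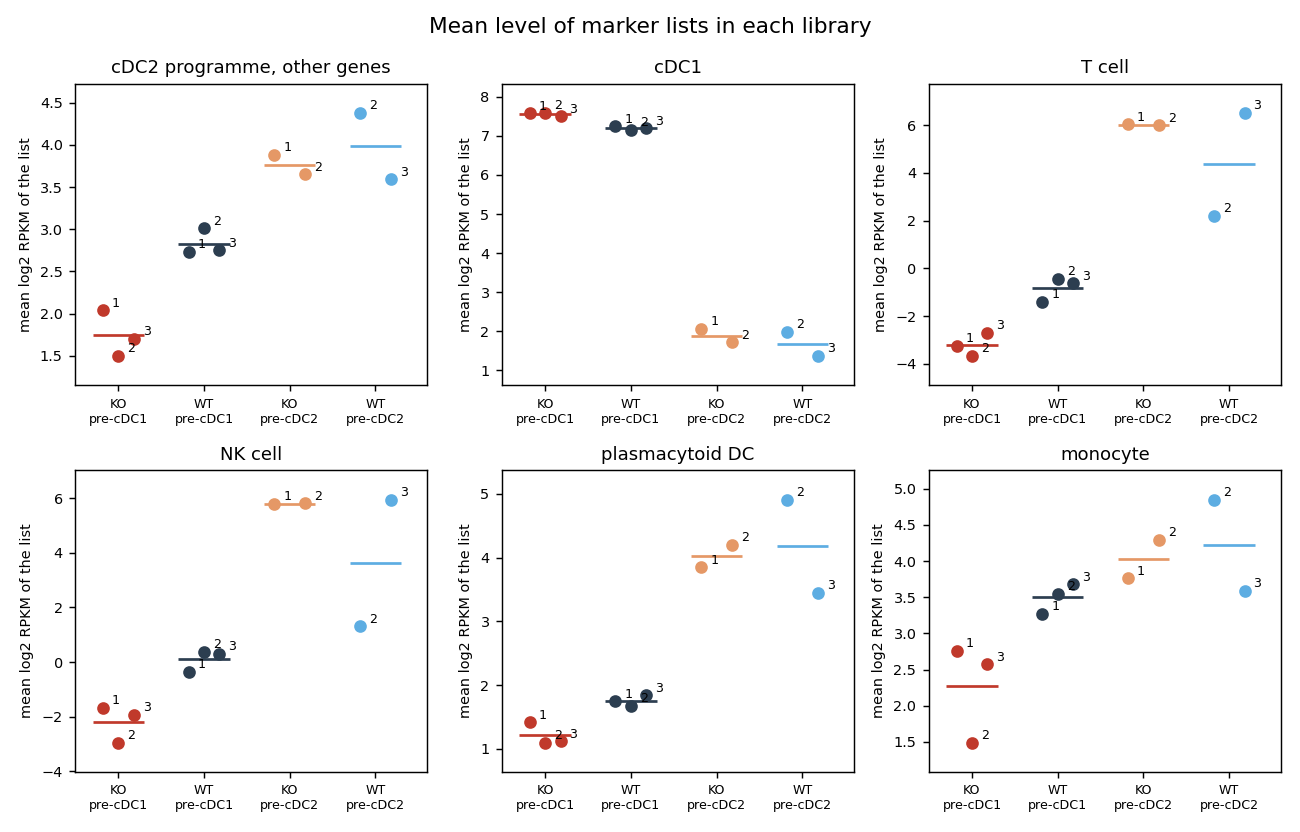
Mean log2 RPKM over the genes of 6 marker lists (vertical axis, its own scale per panel) in KO and WT pre-cDC1 and KO and WT pre-cDC2; points are libraries with replicate numbers and bars are group means. In pre-cDC1 5 of the lists lie lower in KO and the cDC1 list lies higher, and WT pre-cDC2 replicate 2 has low T and NK cell means.

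In the comparison of KO with WT pre-cDC2, no difference of a member passed the limma test (0 of 8; 0.0676% of all genes did). None had an unadjusted p under 0.05, which 6.67% of all genes had, and voom called 0 members. All 8 differences were negative in the fit (48.8% of all genes were), but 6 of the 8 were at or above 0 once WT replicate 2 was left out. Clec12a and Clec4a2 alone were lower in both KO libraries than in both WT libraries, 2 of 8 members against 14.6% of all tested genes. With groups of 2, such a gap is common.

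Sirpa had 4.16 and 4.55 log2 RPKM in KO pre-cDC2, against 5.47 and 3.89 in WT replicates 2 and 3. The KO libraries lay between the WT ones, and the difference was -0.32 ± 0.51 log2 (95% interval -1.48 to 0.83). It was 0.47 without WT replicate 2. Cd209a had 7.55 and 7.55 in KO, against 9.13 and 7.44 in WT. Its difference was -0.73 ± 0.48, which became 0.11 without WT replicate 2 and -1.58 without replicate 3.

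Cd7 had 8.38 and 8.19 log2 RPKM in KO pre-cDC2, against 9.10 and 8.12 in WT. Its difference was -0.33 ± 0.38 log2, and 0.16 without WT replicate 2. Cd4 had 2.14 and 2.68 in KO and 3.42 and 1.83 in WT, a difference of -0.22 ± 0.74 that was 0.58 without replicate 2. Clec10a had 4.01 and 3.81 in KO and 5.18 and 3.85 in WT, a difference of -0.61 ± 1.90 that was 0.06 without it. For each of these genes both KO libraries were below WT replicate 2.

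Clec12a had 3.89 and 3.92 log2 RPKM in KO pre-cDC2, against 5.50 and 3.99 in WT replicates 2 and 3. Its difference was -0.84 ± 0.38 log2 (limma adjusted p = 0.754). It was -0.09 without WT replicate 2 and -1.60 without replicate 3, so the value was set by which WT library was kept. Clec4a2 had -1.35 and -2.29 in KO, from 11 and 5 reads, against 0.93 and -0.91 in WT, from 76 and 17 reads, and differed by -1.83 ± 0.96 (adjusted p = 0.795), by -0.91 without WT replicate 2 and by -2.75 without replicate 3. Clec4a4 had no read in either KO library and 9 and 0 in WT, and Mgl2 had 8 and 14 reads in KO against 32 and 10 in WT.

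Next, pre-cDC2 were compared with pre-cDC1, which asks how far these genes already separate the lineages at the precursor stage. In KO, 6 of 8 tested members passed (20.8% of all genes did): Cd7, Cd209a, Sirpa, Cd4 and Clec10a rose in pre-cDC2 (10.7% of genes rose) and Clec12a fell (10.1% fell). In WT, 3 of 8 passed (11.5% of all genes): Cd7 and Cd4 rose (4.88% of genes rose) and Clec12a fell (6.59% fell). Sirpa, Cd209a, Clec10a, Cd4 and Cd7 were higher in every pre-cDC2 library than in every pre-cDC1 library of the same genotype, 5 of 8 members in KO (28.6% of all genes) and 5 of 8 in WT (20.2%). With each library centred on its median, 1327 genes rose and 1943 fell in KO, against 1575 and 1499 as deposited, and the members kept their directions. The KO pre-cDC1 libraries enter both this comparison in KO and the one with WT pre-cDC1 above, so the values of the same genes in these are not independent.

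Cd7 had the largest fitted rise among members that passed in KO apart from Clec10a. It rose by 4.72 ± 0.34 log2 in KO pre-cDC2 over KO pre-cDC1 (26.3-fold, limma adjusted p = 3.83e-05) and by 2.89 ± 0.34 in WT pre-cDC2 over WT pre-cDC1 (7.43-fold, adjusted p = 0.000916). Every pre-cDC2 library lay at 8.12 or more and every pre-cDC1 library at 6.01 or less. Without WT pre-cDC2 replicate 2 the rise in WT was 2.40.

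Cd4 rose by 3.25 ± 0.67 log2 in KO (9.51-fold, limma adjusted p = 0.00873) and by 2.98 ± 0.67 in WT (7.87-fold, adjusted p = 0.0214). All pre-cDC2 values, 1.83 to 3.42, were above all pre-cDC1 values, -1.54 to 0.50. In KO the call was lost without KO pre-cDC2 replicate 2, at 2.98 ± 0.91 (adjusted p = 0.0785), and with no filter on low values (adjusted p = 0.0852). In WT it was lost without WT pre-cDC2 replicate 2, at 2.18 ± 0.77 (adjusted p = 0.0983). Leaving out replicate 2 of WT pre-cDC1 (adjusted p = 0.0636) or its replicate 3 (adjusted p = 0.0586) had the same effect. No filter (adjusted p = 0.129), a fit of the compared groups alone (adjusted p = 0.112) and a replicate block (adjusted p = 0.0581) also ended the call in WT. A replicate block by genotype and number ended it in KO (adjusted p = 0.0631) and in WT (adjusted p = 0.109). Cd4 is also a gene of helper T cells. The T cell list, which is not specific to helper cells, averaged 6.00 to 6.04 log2 RPKM in KO pre-cDC2. In WT pre-cDC2 Cd4 was at 3.42 in replicate 2, where the list averaged 2.21, and at 1.83 in replicate 3, where it averaged 6.52. Cd7, likewise a gene of T and NK cells, was at 9.10 and 8.12 in these libraries. The part of T cells in either gene's level was not tested.

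Cd209a rose by 3.37 ± 0.44 log2 in KO (10.3-fold, limma adjusted p = 0.000871), and Sirpa by 3.23 ± 0.47 (9.38-fold, adjusted p = 0.00142). In WT the difference was 1.22 ± 0.44 for Cd209a (adjusted p = 0.115) and 1.55 ± 0.47 for Sirpa (adjusted p = 0.0656), and neither passed, although every pre-cDC2 library was above every pre-cDC1 library. Without WT pre-cDC2 replicate 2 these differences were 0.37 for Cd209a and 0.76 for Sirpa. Without replicate 3 they were 2.06 for Cd209a and 2.35 for Sirpa. WT pre-cDC1 held Cd209a at 6.98 to 7.14 log2 RPKM, close to the 7.44 of WT pre-cDC2 replicate 3.

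Clec10a rose by 6.19 ± 1.73 log2 in KO (limma adjusted p = 0.0325), a value that includes the KO pre-cDC1 library without a read. Without that library the rise was 3.89 (adjusted p = 0.00103). In WT the difference was 2.31 ± 1.73 (adjusted p = 0.457), and the error rested on the same library, which is not in this contrast but shares in the estimate of spread: without it the difference was 2.31 ± 0.38 and passed (adjusted p = 0.00902). It also passed with 1 RPKM added (2.10, adjusted p = 0.00962) and with voom (2.34, adjusted p = 0.0337), and adjusted p over all alternatives ranged from 0.00902 to 0.702. Without WT pre-cDC2 replicate 2 it was 1.65, and without replicate 3 it was 2.98. By reads, Clec10a had 459 and 354 in KO pre-cDC2 and 1447 and 465 in WT pre-cDC2, more than in any pre-cDC1 library. The KO call was lost when any WT pre-cDC1 library or any KO pre-cDC2 library was left out, with adjusted p between 0.0508 and 0.168. That call was also lost with no filter (limma adjusted p = 0.286), without trend (0.066) and in a fit of the compared groups alone (0.137). A replicate block by genotype and number ended it too (adjusted p = 0.061). Mgl2 followed at much lower counts, with 8 to 32 reads per pre-cDC2 library and at most 6 per pre-cDC1 library.

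Clec12a was the member whose lower level in pre-cDC2 passed the test. It fell by 2.24 ± 0.35 log2 in KO pre-cDC2 relative to KO pre-cDC1 (4.71-fold lower, limma adjusted p = 0.00211) and by 1.56 ± 0.35 in WT (2.94-fold lower, adjusted p = 0.0208). Levels were 3.89 to 5.50 log2 RPKM in pre-cDC2 and 5.96 to 6.39 in pre-cDC1. Without WT pre-cDC2 replicate 2 the fall in WT was -2.31, and without replicate 3 it was -0.80. Leaving out WT pre-cDC1 replicate 1 (limma adjusted p = 0.0672) or replicate 2 (adjusted p = 0.0633) ended the call in WT. That call was also lost with no filter (adjusted p = 0.169), without trend (0.0553) and in a fit of the compared groups alone (0.156). A replicate block by genotype and number ended it too (adjusted p = 0.123). In KO the highest adjusted p over all alternatives was 0.0546, with no filter on low values. Clec4a2 was also negative but did not pass in either genotype, at -1.56 ± 0.87 in KO and -1.81 ± 0.87 in WT, where it was -2.73 without WT pre-cDC2 replicate 2 and -0.89 without replicate 3. Clec4a4, at few reads, had fitted values of -1.75 in KO and -0.90 in WT, with overlapping groups.

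**Figure D4:**
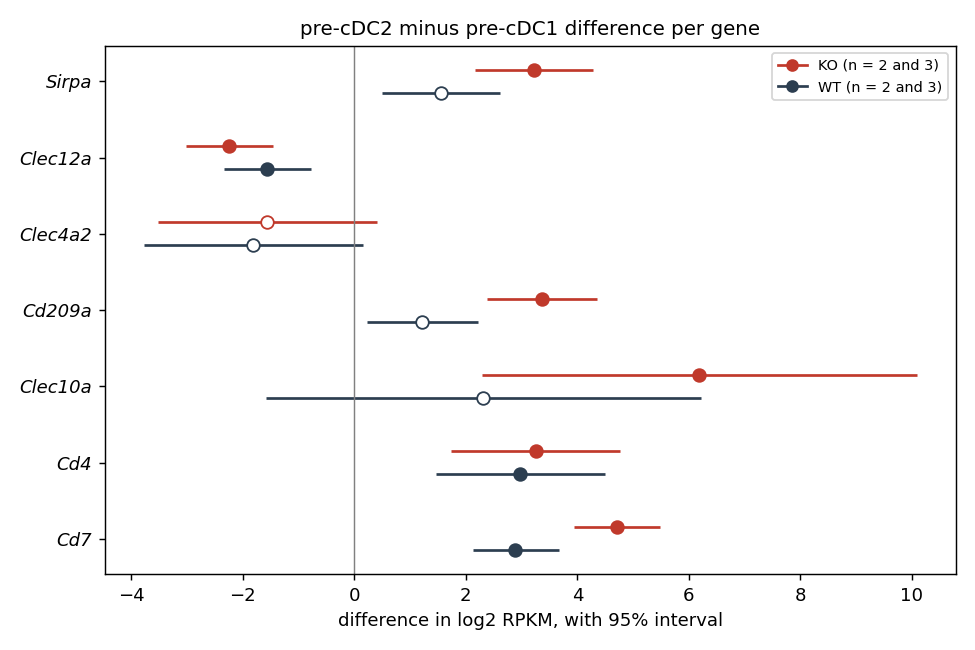
Fitted pre-cDC2 minus pre-cDC1 difference in log2 RPKM (horizontal axis) with its 95% interval for 7 genes, in KO above and in WT below within each row; filled points passed the adjusted threshold of 0.05 and open points did not. Of the 5 genes with positive values, all are filled in KO and Cd4 and Cd7 are filled in WT, and Clec12a is filled and negative in both.

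The promoters of Clec12a and Cd209a, the highest members of pre-cDC1 with opposite cell type differences, are printed as the 250 bases before the RefSeq start (GRCm38.p6), which for Clec12a differs from the GENCODE gene start. Capitals mark GAGGAA, a core motif of the myeloid factor PU.1, on either strand.
Clec12a, chr6:129349994-129350243, + strand: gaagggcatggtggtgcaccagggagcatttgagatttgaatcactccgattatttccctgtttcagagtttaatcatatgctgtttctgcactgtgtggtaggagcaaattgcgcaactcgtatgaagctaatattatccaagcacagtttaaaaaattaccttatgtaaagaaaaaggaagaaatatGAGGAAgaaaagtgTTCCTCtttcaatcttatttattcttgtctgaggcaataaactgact
Cd209a, chr8:3748985-3749234, - strand: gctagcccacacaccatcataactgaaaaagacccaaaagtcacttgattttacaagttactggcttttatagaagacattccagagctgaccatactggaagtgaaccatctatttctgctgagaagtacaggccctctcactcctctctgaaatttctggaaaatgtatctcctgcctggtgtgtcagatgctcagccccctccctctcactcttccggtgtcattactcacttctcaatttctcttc

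The Clec12a window held GAGGAA at -61 to -56 and, on the other strand, at -47 to -42, counted from the start, and the Cd209a window held none. GAGGAA occurs in 23.3% of the 32851 promoter windows of that length. The ETS-IRF composite, searched as GGAA followed after any 2 bases by GAAA, read 5′ to 3′ on either strand (2.3% of windows), was in neither, and the opposite order, GAAA before GGAA, was not searched. The interferon-response core, GAAA followed after any 2 bases by GAAA (2.98%), was in neither. Promoters were matched for 4 of the 9 members. Mgl2, with more reads in pre-cDC2, held GAGGAA at -225 to -220. Clec4a2, with a negative cell type difference that did not pass, held none. The part of the motif in these levels was not tested.

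The difference between the genotype effects of the cell types, tested as an interaction, passed for no member in limma (0 of 8; 0.0203% of all genes did) or voom, and 3 members had an unadjusted p under 0.05 (4.82% of all genes did). The interaction was 1.82 ± 0.49 log2 for Cd7 (unadjusted p = 0.00428, limma adjusted p = 0.776), 2.15 ± 0.62 for Cd209a (unadjusted p = 0.00694, adjusted p = 0.823) and 1.68 ± 0.66 for Sirpa (unadjusted p = 0.0313, adjusted p = 0.987). Positive values mean that KO minus WT was less negative in pre-cDC2. Without WT pre-cDC2 replicate 2 these were 2.31 for Cd7, 3.0 for Cd209a and 2.47 for Sirpa. For Clec12a it was -0.68 ± 0.49, and -1.44 without WT pre-cDC2 replicate 3.

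RPKM is scaled to gene length, so levels can be ranked between genes. In KO pre-cDC1 the mean levels ran from Clec12a (6.14 ± 0.17 log2 RPKM, SD, n = 3) through Cd209a (4.18 ± 0.54), Cd7 (3.57 ± 0.49) and Sirpa (1.13 ± 0.26) to Clec4a2 (-0.27 ± 1.42) and Cd4 (-0.84 ± 0.61). In WT pre-cDC1 they ran from Cd209a (7.07 ± 0.08) through Clec12a (6.30 ± 0.12), Cd7 (5.72 ± 0.32), Sirpa (3.13 ± 0.59), Clec10a (2.20 ± 0.25) and Clec4a2 (1.82 ± 0.03) to Cd4 (-0.35 ± 0.79). In KO, Clec4a2 and Cd4 were within their spread of each other. Cd209a and Cd7 overlapped in level across KO libraries, but Cd7 minus Cd209a was -0.68, -0.48 and -0.68 log2 in them, so Cd209a was the higher in each library.

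In KO pre-cDC2 the order was Cd7 (8.29 ± 0.13, n = 2), Cd209a (7.55 ± 0.00), Sirpa (4.36 ± 0.28), Clec10a (3.91 ± 0.14), Clec12a (3.91 ± 0.02) and Cd4 (2.41 ± 0.38). In WT pre-cDC2 it was Cd7 (8.61 ± 0.69), Cd209a (8.29 ± 1.20), Clec12a (4.75 ± 1.07), Sirpa (4.68 ± 1.12), Clec10a (4.52 ± 0.94) and Cd4 (2.62 ± 1.13). There Cd7 and Cd209a overlapped in level, as did Clec12a, Sirpa and Clec10a. Mgl2, Clec4a2 and Clec4a4 were the lowest in both.

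Differences between 2 members of one library do not depend on its scaling. Cd209a minus Clec12a was -1.47, -2.10 and -2.31 log2 in KO pre-cDC1, against 0.69, 0.79 and 0.82 in WT pre-cDC1. Clec12a thus led Cd209a in every KO library and followed it in every WT library of these cells. In pre-cDC2 the same difference was 3.66 and 3.63 in KO and 3.63 and 3.45 in WT, so it was nearly the same in WT replicate 2 as in the other libraries, unlike the level of either gene. Cd209a minus Sirpa stayed between 2.69 and 4.56 in all 10 libraries, with overlapping genotypes.

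Across the 10 libraries, which share the cell type split, Sirpa, Cd209a and Cd7 tracked each other, with Pearson r of 0.955 for Sirpa and Cd209a, 0.96 for Sirpa and Cd7 and 0.923 for Cd209a and Cd7. Clec12a correlated at -0.587 with Sirpa, -0.449 with Cd209a and -0.737 with Cd7. Tnfsf9, the ligand of 4-1BB, was among the genes whose levels were most like Sirpa (r = 0.993). For Cd209a the most similar were Tmem176a (0.996), an ion channel gene of the cDC2 list, and Tppp3 (0.983), and for Cd7 Spib (0.992), an ETS factor of plasmacytoid dendritic cells, and Cybb (0.992), a subunit of the phagocyte oxidase. Clec12a was most like Rnase6 (0.997), which encodes an antimicrobial ribonuclease, and Rraga (0.997), which encodes a Rag GTPase, while Cd4 was most like Rab3il1 (0.975) and Tmem123 (0.968). Clec10a came closest to Fbxo8 (0.967) and the lectin Cd209d (0.952), and Clec4a2 to Sar1b (0.956) and Tpgs1 (0.947). Clec4a4 came closest to Kctd20 (0.925) and Fdxacb1 (0.919), all over 10 libraries. Clec4a4 had either 0 reads or 7 to 9 in each library, so its correlations reflect that split. Those of Clec10a include KO pre-cDC1 replicate 2, where Clec10a (-6.88 log2 RPKM) and Cd209d (-5.22) both had 0 reads and Fbxo8 was at 0.63. They were not computed without that library.

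Tnfsf9, chosen for that correlation, had 4.01, 3.66 and 3.93 log2 RPKM in KO pre-cDC1, against 5.77, 6.12 and 6.38 in WT pre-cDC1, and 7.40 and 7.37 in KO pre-cDC2, against 8.62 and 6.91 in WT pre-cDC2. Its levels, a description only, were lower in all KO than in all WT pre-cDC1 libraries and highest in WT pre-cDC2 replicate 2.

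The other genes of the cDC2 programme gave a similar picture in pre-cDC1. Of 23, 18 were lower and 5 higher in KO than in WT pre-cDC1, with a median of -1.30 log2 against 0.0 over all genes. Over all genes, 51.4% were lower. Of the 23, 13 were lower without overlap (9.27% of all genes were), and none passed (0.0271% of all genes did). Gpr183, a chemotactic receptor that positions cDC2 in the spleen, differed by -1.25 ± 0.17 log2 (limma adjusted p = 0.0526), and Cx3cr1, a chemokine receptor, by -2.41 ± 0.41 (adjusted p = 0.0763). Tmem176a differed by -2.14 ± 0.36 (adjusted p = 0.0745) and Il1r2, the decoy receptor for interleukin 1, by -2.01 ± 0.43 (adjusted p = 0.151).

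In KO pre-cDC2 over KO pre-cDC1, 12 of the 23 rose (10.7% of all genes did) and 2 fell (10.1%). In WT pre-cDC2 over WT pre-cDC1, 3 rose (4.88% of all genes) and 2 fell (6.59%). Gpr183 rose by 1.39 ± 0.19 log2 in WT (limma adjusted p = 0.00207), by 1.44 without WT pre-cDC2 replicate 2 and by 1.34 without replicate 3. Zeb2, a repressor needed by the cDC2 lineage, rose by 2.76 ± 0.54 (adjusted p = 0.0109), by 1.98 without replicate 2 and by 3.54 without replicate 3. Rbpj, the transcription factor through which Notch acts, fell by 1.32 ± 0.25 (adjusted p = 0.0103), with -1.80 without replicate 2 and -0.84 without replicate 3. Il1r2 fell by 1.84 ± 0.48 (adjusted p = 0.0367), with -2.80 without replicate 2, and lost the call without replicate 3, at -0.88 (adjusted p = 0.13).

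Of 12 signalling partners and ligands of these receptors, 10 were tested, and none passed between KO and WT pre-cDC1 (0.0271% of all genes did). Of the 10, 7 were lower and 3 higher, and 51.4% of all genes were lower. Ptpn6, which encodes SHP-1, differed by -0.54 ± 0.25 log2 (limma adjusted p = 0.566), and Cd47, the ligand of SIRPα, by -0.28 ± 0.14 (adjusted p = 0.602). Lck, a kinase that binds CD4, differed by -1.61 ± 0.96, and Fyb, an adaptor protein, by -0.27 ± 0.19.

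In KO pre-cDC2 over KO pre-cDC1, 4 of the 10 partners rose and 2 fell (10.7% and 10.1% of all genes did). In WT pre-cDC2 over WT pre-cDC1, 3 rose and 2 fell (4.88% and 6.59% of all genes did). Lck rose by 5.08 ± 1.07 log2 in WT (limma adjusted p = 0.0157). It was at 4.24 log2 RPKM in WT pre-cDC2 replicate 2, where the T cell list averaged 2.21, and at 8.41 in replicate 3, where that list averaged 6.52. The rise was 7.17 without replicate 2, and 2.99 without replicate 3, where it did not pass (adjusted p = 0.0643). The part of T cells in it was not tested. Fyb rose by 1.35 ± 0.21 (adjusted p = 0.00368), by 1.68 without replicate 2 and by 1.03 without replicate 3. Inpp5d, the phosphatase SHIP-1, fell by 1.00 ± 0.16 (adjusted p = 0.005), with -1.24 without replicate 2 and -0.75 without replicate 3. Skap2, an adaptor that binds the SIRPα tail in macrophages, fell by 1.33 ± 0.32 (adjusted p = 0.0257), with -2.01 without replicate 2 and -0.65 without replicate 3.

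Of 25 related lectin and SIRP genes, 14 were tested, and none passed between KO and WT pre-cDC1 (0.0271% of all genes did). Of the 14, 10 were lower and 4 higher, and 51.4% of all genes were lower. Clec4a1, a neighbour of Clec4a2, had 0.02, -1.55 and 0.77 log2 RPKM in KO and 2.47, 3.34 and 3.26 in WT pre-cDC1, a difference of -3.27 ± 0.81 (limma adjusted p = 0.203). Clec4a3 differed by -2.71 ± 1.03 (adjusted p = 0.458), Cd209c by -2.65 ± 0.67 (adjusted p = 0.209) and Cd209e by -4.56 ± 1.08 (adjusted p = 0.193). Reads were few in KO pre-cDC1: 16, 5 and 20 for Clec4a1, 7, 19 and 10 for Clec4a3, 3, 2 and 3 for Cd209c and 31, 1 and 1 for Cd209e. In WT pre-cDC1 Cd209c had 13, 12 and 38 and Cd209e 141, 79 and 58. At such low reads the sizes depend on the prior count.

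In KO pre-cDC2 over KO pre-cDC1, 5 of the 14 rose and 4 fell (10.7% and 10.1% of all genes did). In WT pre-cDC2 over WT pre-cDC1, 1 rose and 3 fell (4.88% and 6.59% of all genes did). The activation antigen gene Cd69 rose by 3.06 ± 0.61 log2 in WT (limma adjusted p = 0.012). It was at 5.23 log2 RPKM in WT pre-cDC2 replicate 2, where the T and NK cell lists averaged 2.21 and 1.31, and at 7.47 in replicate 3, where they averaged 6.52 and 5.95. The rise was 4.18 without replicate 2, and 1.93 without replicate 3, where it did not pass (adjusted p = 0.0544), and the part of those cells in it was not tested. Clec1a fell by 2.00 ± 0.34 (adjusted p = 0.00593), with -2.68 without replicate 2 and -1.31 without replicate 3. Clec9a, a cDC1 receptor for dead cells, fell by 1.97 ± 0.35 (adjusted p = 0.00733), with -2.75 without replicate 2 and -1.19 without replicate 3. Clec4b2 was also counted as falling, with no read in any pre-cDC2 library, while pre-cDC1 libraries had 27 to 82 each. Its pre-cDC2 values are all the floor set by the prior count, without spread, so no p-value is given for it.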

How the data were processed

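RNA was sequenced from KO and WT pre-cDC1 and pre-cDC2. Per the labels' protocols, 2 ng of total RNA with spike-ins was amplified by SMARTSeq v2, which includes PCR, and sequenced as paired ends. Per the submitters' processing notes, STAR 2.3, featureCounts 1.5.0, edgeR and R 3.3.3 were used with GRCm38 (mm10). Sources used here do not give the annotation release, the strand setting or the handling of shared reads. The authors deposited log2 RPKM values per gene.

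Whole reads were recovered from the deposited values with gene lengths from GENCODE M21 or, where none matched, solved from the values (within 0.001 reads for 100% of 525500 values), and they served for totals and counts. Reads are not independent molecules. A model of 4 group means was fitted to the 10 libraries with limma 3.58.1 (R 4.3.3; eBayes with trend, 6 residual degrees of freedom), using genes above 0 log2 RPKM in 2 or more libraries and adding no pseudocount. Tests were two-sided with Benjamini-Hochberg adjustment over 14787 genes, at a threshold of 0.05. The procedure was tested on simulated data. Members and lists were chosen with earlier results of these data known. Named genes are the members, the 2 most similar genes per tested member (mean of at least 1 log2 RPKM, no predicted genes), up to 4 genes with the smallest p per list of cDC2 programme, partners and related lectins, and the first 4 markers of other lists; Adam10 was added as the deleted gene and Gm11775 as an overlapping one. Some genes that this rule names are not reported here. Alternatives were other filters, 1 RPKM added, quantile or median scaling, no trend, only the compared groups, voom on recovered reads, replicate blocks and leaving out each library. Promoters came from RefSeq (GRCm38.p6), and Biopython 1.88 aligned coding sequences.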

Additional observations from a re-analysis of the deposited data

How the results depend on the processing

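The fit called 4 genes and 0 members between KO and WT pre-cDC1, 10 and 0 between KO and WT pre-cDC2, 3074 and 6 between pre-cDC2 and pre-cDC1 in KO, 1697 and 3 in WT, and 3 and 0 in the interaction; the cause of the shifts below was not tested. In pre-cDC1, KO against WT gave 19 genes with no filter, 18 genes and 2 members with the stricter filter, 2 genes with 1 RPKM added, 9 genes and 2 members after quantile normalization, 18 without trend, 53 genes and 1 member with only the compared groups, and 0 with voom (1183 at an unadjusted p under 0.05). In pre-cDC2, KO against WT gave 177 genes with no filter, 5 with 1 RPKM added, 42 without trend, 0 with only the compared groups (651 unadjusted) and 4 with voom. Between cell types in KO, no filter gave 1396 genes and 3 members. In WT, no filter gave 769 genes and 1 member, only the compared groups 460 and 1, and voom 5 members. The interaction gave 140 genes with no filter, 1 with the stricter filter, 6 after quantile normalization, 36 without trend and 1 with voom, and for Clec4a2 it was -0.49 after quantile normalization.

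Libraries of equal replicate number showed little shared deviation from their group means (correlations from -0.03 to 0.031). Such values do not settle whether these libraries shared an animal or a batch. The replicate block left 0 genes in KO against WT pre-cDC1 (1242 unadjusted), 2 in pre-cDC2 and 0 in the interaction (710 unadjusted), where Clec4a2 was -0.22. A replicate block by genotype and number left 1094 genes between cell types in KO, 217 genes and 1 member in WT and 0 in the interaction (581 unadjusted), where Cd4 was -0.03.

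Leaving out one library gave 0 to 114 genes and 0 to 3 members in KO against WT pre-cDC1, and 5 to 1048 and 0 to 2 in pre-cDC2. It gave 1418 to 3887 genes and 4 to 6 members between cell types in KO, 999 to 2722 and 1 to 5 in WT, and 0 to 495 and 0 to 1 in the interaction. For KO minus WT in pre-cDC2 the ranges, each from the fit without WT pre-cDC2 replicate 3 to that without replicate 2, were -1.12 to 0.47 log2 for Sirpa, -1.58 to 0.11 for Cd209a, -0.82 to 0.16 for Cd7, -1.27 to 0.06 for Clec10a, -1.01 to 0.58 for Cd4 and -4.78 to 0.00 for Clec4a4. Interaction ranges, set by the same libraries, were -1.44 to 0.07 for Clec12a, -0.66 to 1.18 for Clec4a2, -0.52 to 1.07 for Cd4 and -3.24 to 1.54 for Clec4a4. Clec4a4 between cell types in WT ranged from -3.29 to 1.49. Where 1 pre-cDC2 library was left in a group, its spread was taken from the remaining groups. Low reads limit Clec4a4, Mgl2 and Clec4a2 among the members, and Clec4a1, Clec4a3, Cd209c and Cd209e among the related lectins.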
